A study of Capra hircus with 9 samples.

Results

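The genes described here encode the core of the JAK-STAT pathway in the goat mammary gland: the kinases JAK1 and JAK2, the transcription factors STAT3, STAT5A, STAT5B and STAT6, and the feedback inhibitors SOCS1, SOCS2, SOCS3 and CISH. They were chosen by symbol, and 9 of these 10 symbols are among the 23499 genes of the deposited table. No gene of the table is named STAT5A. The study sampled mammary tissue of 9 healthy Laoshan dairy goats, a Chinese breed kept for milk, from 1 farm. The goats were of parity 3 and about 4 years old on average, and all tissue was taken at slaughter. 3 goats were in late lactation (LL, 240 days postpartum), 3 in the dry period (DP, 300 days postpartum) and 3 in late gestation (LG, 140 days after mating), and each library comes from 1 goat. The goats of the 3 stages are different animals, so no goat was followed from one stage to the next.

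In this pathway a hormone or cytokine binds its receptor, the JAK bound to that receptor phosphorylates a STAT, and the STAT enters the nucleus and switches on target genes. CISH and the SOCS genes are among those targets, and their proteins bind the receptor or the kinase and shut the signal off. In the mammary gland, prolactin acting through JAK2 and STAT5 drives the formation of alveoli in pregnancy and the transcription of milk protein genes. STAT3, activated by leukemia inhibitory factor, oncostatin M and IL-6, is known for starting involution after milking or suckling stops, and STAT6 transmits IL-4 and IL-13.

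The table gives 1 value per gene and library. Its unit is not named, and the values were read as FPKM, fragments per kilobase of transcript scaled to the sequencing output of the library. All genes of a library compete for the same total, and the 10 genes with the highest values took 80.6% to 86.0% of the summed FPKM of an LL library against 53.6% to 58.5% in DP and LG. For tests, the FPKM of each library were therefore divided by a median-ratio scaling factor, which was 0.498 to 0.605 for LL, 1.44 to 1.53 for DP and 1.20 to 1.31 for LG. A log2 fold change below is the difference between stage means of log2(scaled FPKM + 1), and it understates the change of genes with low values. A gene was called where the limma adjusted p was below 0.05 and the log2 fold change was at least 1 in size. The choice of scaling decides the sign of some members. Unscaled results are therefore also given where they change the sign or the call of a member, beside it or in the closing section. For other genes and lists they are given only in part. Because the tissue was profiled in bulk, fewer cells of a type and less RNA per cell cannot be told apart.

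In the dry period SOCS3, SOCS1 and STAT6 were higher than in late lactation, while JAK1 was lower after scaling, so 4 of the 9 members were called against 22.6% of the 14701 genes tested. The 3 higher calls stand beside 13.8% of all genes and the 1 lower call beside 8.79%. Of the 3, SOCS1 passed the filter on low values, 0.5 FPKM in 3 or more libraries, only through DP and LG. A difference from LL was therefore built into its being tested. From the dry period to late gestation SOCS3, STAT6 and JAK2 were lower, 3 members against 13.3% of all genes called, of which 6.88% were lower and 6.37% higher. Between late gestation and late lactation, 2 members, JAK1 and SOCS3, were called lower in late gestation, against 17.3% of all genes called, 10.7% higher and 6.61% lower. STAT3, STAT5B, SOCS2 and CISH were called in none of the 3 comparisons after scaling. Scaled values of the stages did not overlap in 5 members for DP against LL, in 6 for LG against LL and in 5 for LG against DP, which 65.9%, 61.1% and 47.9% of all tested genes also showed. The median log2 fold change over the members was 0.23 for DP against LL, -0.43 for LG against LL and -0.46 for LG against DP, beside 0.0041, 0.019 and 0.0083 over all genes tested. DP and LG were both compared with the same LL libraries, so those comparisons are not independent of each other.

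**Figure D1:**
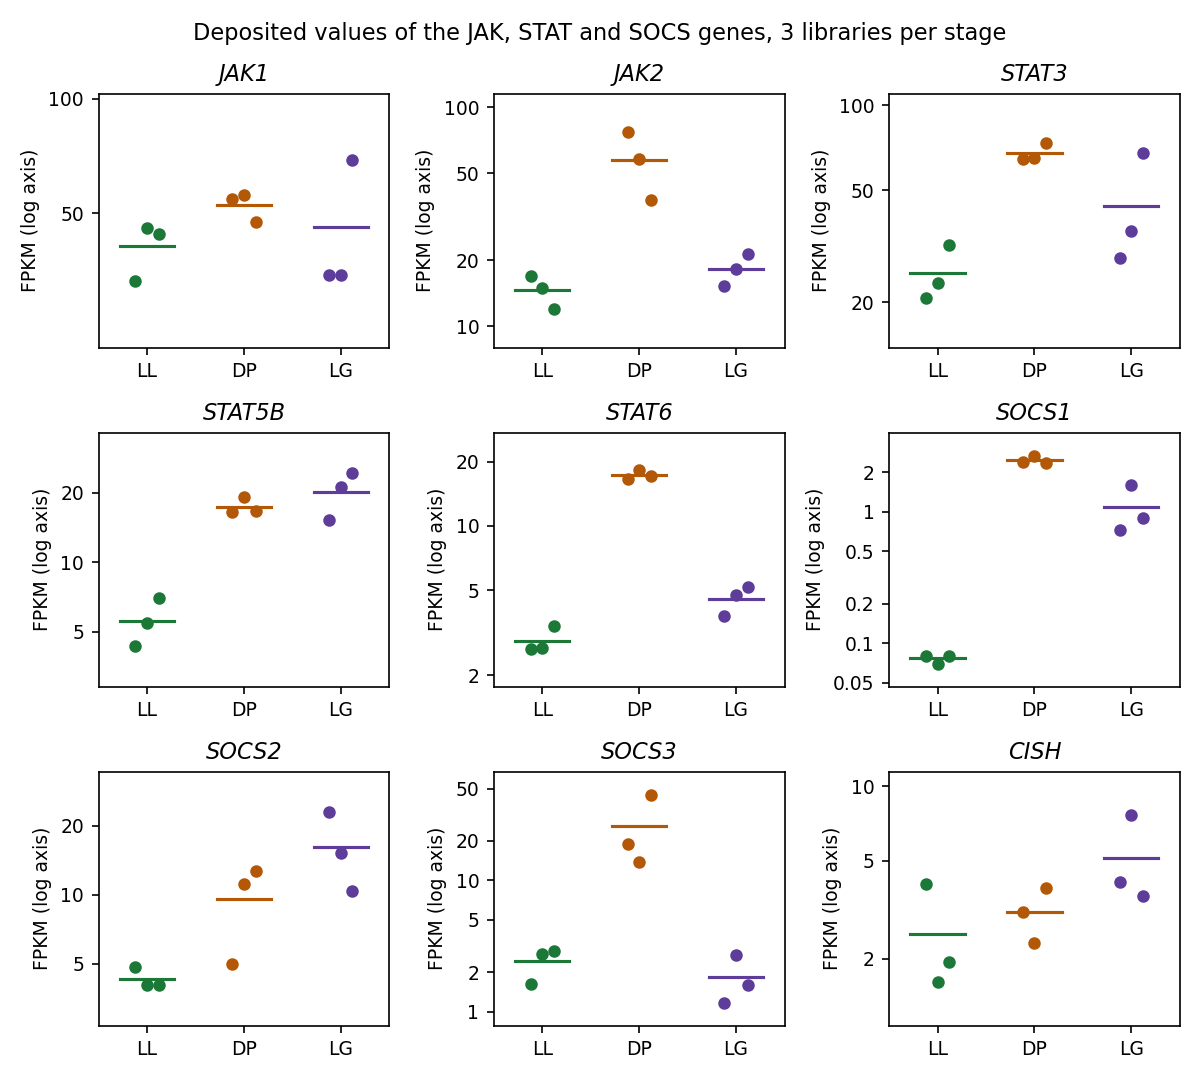
Deposited FPKM (vertical log axis) of the 9 JAK, STAT and SOCS genes of the table in late lactation (LL), the dry period (DP) and late gestation (LG). Each point is 1 library and each line is the mean of 3 libraries. SOCS3 lay between 13.79 and 45.05 in DP and at or below 2.89 in the other 6 libraries.

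The values of neighbouring genes were examined first, since they decide which members are separate measurements. STAT5B (gene ID 102176415, chromosome 19, 41959467 to 42023925, minus strand) and STAT3 (gene ID 102186154, chromosome 19, 42057315 to 42131657, minus strand) are neighbours, with the protein-coding gene LOC102185866 (chromosome 19, 42034048 to 42055987, plus strand) between them. No genome build is named in the table. LOC102185866 has no other symbol in the table or in the RefSeq gene table used here, no gene in either is named STAT5A, and which gene holds STAT5A is not given there. These 3 neighbours did not share a value. A straight line between STAT5B and LOC102185866 over the 9 libraries left a residual of 23.1% of the range, and the residual was 45.6% between STAT5B and STAT3 and 57.0% between LOC102185866 and STAT3, whereas genes counted as linked stay within 1%. STAT5B and LOC102185866 nevertheless moved alike across libraries, with a Pearson r of 0.93 over the 9 libraries on scaled log2 values, while r was -0.15 between STAT5B and STAT3. These r values describe 9 libraries of 3 stages and carry no test.

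Both kinases were linked to a neighbour. JAK1 (gene ID 102182846, chromosome 3, 40346865 to 40495200, minus strand) and the microRNA gene MIR101 (chromosome 3, 40585650 to 40585732, minus strand) lie 90449 bases apart with no other gene between them. JAK1 was at 33.23, 45.72 and 43.98 FPKM in LL, 54.40, 55.95 and 47.52 for DP and 34.50, 34.39 and 68.90 for LG. MIR101 was at 31.11, 43.30 and 41.36 FPKM in LL, against 52.28, 53.33 and 44.90 in DP and 31.88, 32.07 and 66.78 in LG. JAK1 thus exceeded MIR101 by 2.12 to 2.62 FPKM in every library.

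JAK2 (gene ID 102180670, chromosome 8, 39245187 to 39360411, minus strand) and RCL1, a gene for ribosomal RNA processing (chromosome 8, 39520371 to 39583801, minus strand), lie 159959 bases apart, again with no gene between them. JAK2 was at 17.02, 14.96 and 11.98 FPKM in LL, 77.13, 58.20 and 37.56 in DP, and in LG 15.27, 18.26 and 21.29. RCL1 exceeded it by 1.96 to 2.46 FPKM in every library. Over the 9 libraries both differences equal 1 fixed set of amounts plus a constant, 1.12 FPKM for JAK1 and 0.96 FPKM for JAK2. The amounts are 1.0, 1.3 and 1.5 FPKM for LL, 1.0, 1.5 and 1.5 for DP and 1.5, 1.2 and 1.0 for LG, and the same amounts separate the neighbours HSD17B1 and NAGLU elsewhere in the table. In all, 1506 genes had a neighbour linked by a line with or without these amounts, among them 2 members. How such values arose was not tested, and the values of JAK1 and JAK2 cannot be told apart from those of MIR101 and RCL1. The other 7 members had no linked neighbour among the 8 nearest genes on either side. RAVER2 on the plus strand overlaps JAK1 and LOC102180828 on the minus strand overlaps STAT6, and without strand-specific counting, which is not stated in the sources used here, their reads could be shared.

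**Figure D2:**
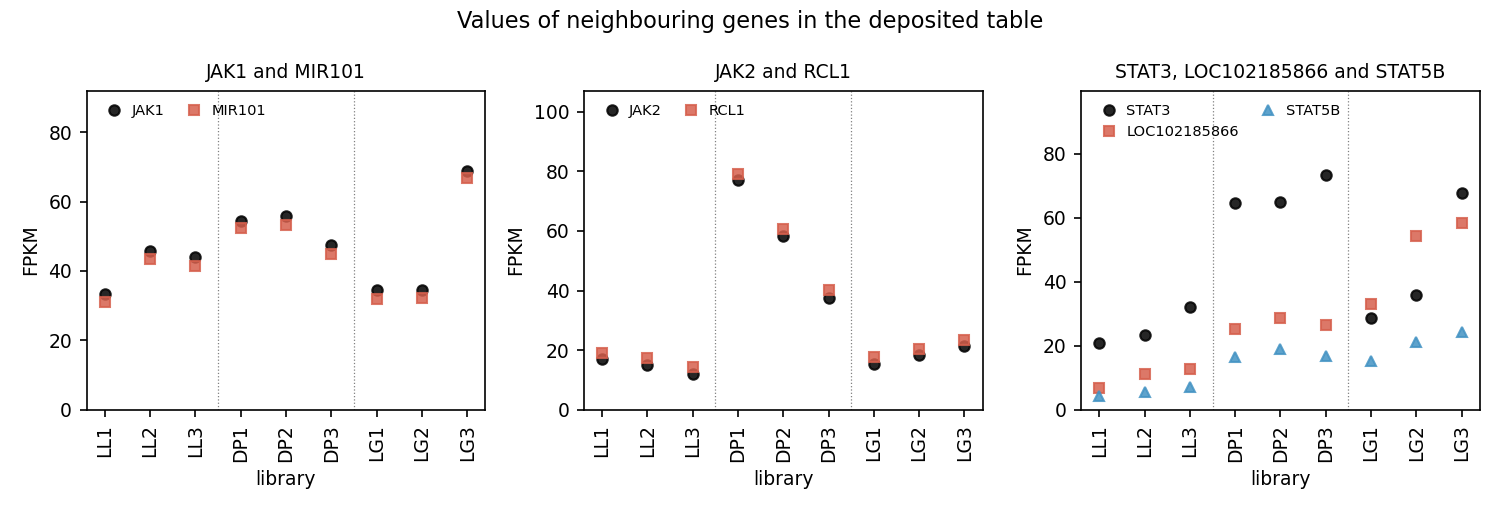
FPKM (vertical axis) of 3 sets of neighbouring genes in the 9 libraries (horizontal axis, stages separated by dotted lines). JAK1 and MIR101 stay 2.12 to 2.62 FPKM apart and JAK2 and RCL1 1.96 to 2.46 FPKM apart, whereas STAT3, LOC102185866 and STAT5B follow separate courses.

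Among the kinases, JAK1 serves most cytokine receptors and JAK2 those for prolactin, growth hormone and leptin. JAK1 FPKM overlapped between LL (mean 41.0 ± 6.76, SD, n = 3) and LG (45.9 ± 19.9) and were higher in DP (52.6 ± 4.49) than in LL in every library. After scaling, the direction turned: scaled JAK1 was 66.8 to 82.6 in LL against 33.0 to 38.8 in DP and 27.9 to 52.4 in LG, with a log2 fold change of -1.02 (SE 0.233, adjusted p = 0.0048) for DP and -1.06 (adjusted p = 0.0046) for LG, both against LL. Without scaling these were 0.36 and 0.096, and neither was called. With quantile normalization both calls were lost as well, at -0.39 and -0.71, and with upper-quartile scaling the call for DP was lost, at -0.89. The JAK1 call in DP against LL was lost without LL replicate 2 or DP replicate 3, and that in LG without LL replicate 2, LG replicate 1 or LG replicate 2.

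JAK2 in DP, at a mean of 57.6 ± 19.8 FPKM, lay above every LL (14.7 ± 2.53) and LG (18.3 ± 3.01) library. The 3 DP libraries ranged from 37.56 to 77.13 and did not overlap the other stages before scaling. Relative to the rest of the library, JAK2 was lower in LG than in DP by a log2 fold change of -1.32 (SE 0.260, adjusted p = 0.0041), and this call was made under every alternative tried. The log2 fold change was 0.50 (adjusted p = 0.13) for DP against LL, where scaled values overlapped, and -0.82 (adjusted p = 0.025) for LG against LL, under the size asked for a call. Without scaling, JAK2 was called higher in DP than in LL, at a log2 fold change of 1.86.

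The ratio of JAK2 to JAK1 within a library does not depend on the scaling. Its log2 averaged -1.48 ± 0.466 (SD, n = 3) among LL, 0.074 ± 0.421 among DP and -1.26 ± 0.397 among LG libraries. The DP libraries did not overlap those of either other stage, and the exact permutation test gave p = 0.1 in both comparisons, the smallest p that 3 libraries against 3 allow. LL and LG overlapped, with an exact permutation p of 0.7. Since the values of both kinases are linked to those of a neighbour, this ratio holds for the linked values only.

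Among the STATs of the table, STAT6 was the 1 member called after scaling. STAT6 (gene ID 102180571, chromosome 5, 55653208 to 55666664, plus strand) was at 2.66, 2.68 and 3.39 FPKM in LL, 16.52, 18.23 and 17.09 for DP and 3.78, 4.78 and 5.17 for LG. Every DP library stood far above the rest, the stages did not overlap, and the DP mean of 17.3 ± 0.871 had the narrowest spread for its size of the 3 stages. STAT6 was higher in DP than in LL (log2 fold change 1.03, SE 0.120, adjusted p = 0.0001) and lower in LG than in DP (-1.46, SE 0.120, adjusted p = 6.58e-05). The LG value was -0.43 against LL (adjusted p = 0.014), under the size of a call, and without scaling it was 0.51. The DP against LL value fell to 0.98, just under the size asked for, without LL replicate 2 or DP replicate 2.

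STAT3 was at 20.72, 23.38 and 32.03 FPKM in LL, against 64.59, 64.81 and 73.31 in DP and 28.73, 35.75 and 67.65 in LG. In FPKM every DP library was above every LL library, and LG was spread over both, since 1 LG library lay within the DP range. Scaled STAT3 ranged over 41.6 to 52.9 for LL, 42.3 to 50.9 for DP and 24.0 to 51.5 for LG, and the log2 fold changes were 0.018 (95% confidence interval -0.55 to 0.59, adjusted p = 0.95) for DP against LL, -0.45 (adjusted p = 0.17) for LG against LL and -0.46 (adjusted p = 0.19) for LG against DP. Unscaled, STAT3 was called higher in DP than in LL, at a log2 fold change of 1.40 where the median of all genes stood at 1.09.

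STAT5B, one of a pair of STAT5 genes whose proteins transmit prolactin and growth hormone signals, was at 4.33, 5.43 and 6.98 FPKM in LL, 16.48, 19.11 and 16.63 in DP, and in LG 15.25, 21.13 and 24.31. LL was lowest in every library, and DP and LG overlapped. After scaling the log2 fold change was 0.63 (SE 0.169, adjusted p = 0.012) for LG against LL, without overlap but under the size of a call, 0.23 (adjusted p = 0.27) for DP against LL and 0.40 (adjusted p = 0.093) for LG against DP. Unscaled it was called higher in both DP and LG than in LL, at 1.5 and 1.68. LOC102185866, the gene next to it, was at 6.91, 11.06 and 12.71 FPKM in LL, 25.25, 28.79 and 26.52 for DP and 33.06, 54.27 and 58.46 for LG. It was called higher in LG than in both LL (1.03, adjusted p = 0.0040) and DP (1.01, adjusted p = 0.0067), and its difference between DP and LL was 0.018.

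The balance of STAT3 to STAT5B, which is independent of the scaling, was lowest in LG. Its log2 was 2.23, 2.09 and 2.18 for the LL libraries, 1.96, 1.76 and 2.13 for DP and 0.91, 0.76 and 1.47 for LG. All LG libraries lay below all LL and DP libraries, by 1.12 and 0.91 on average, with an exact permutation p of 0.1 in each case. LL and DP overlapped (p = 0.2, exact permutation test).

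**Figure D3:**
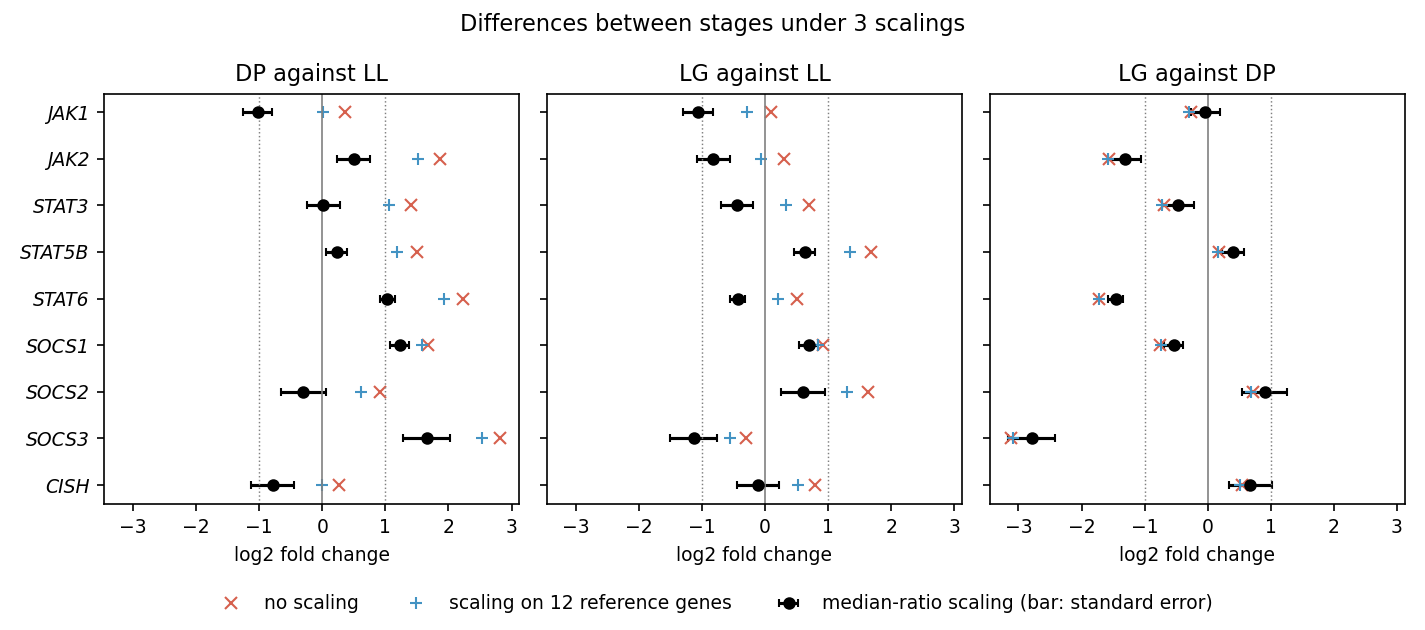
Log2 fold change (horizontal axis) of the 9 members in 3 comparisons of stages. Black points with standard errors are after median-ratio scaling, red crosses are without scaling and blue plus signs are after scaling on the 12 reference genes at the end of the table. The dotted lines mark a log2 fold change of 1 in size. The values of the 3 scalings lie apart in both comparisons with LL and close together for LG against DP.

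Among the inhibitors, SOCS3, which blocks receptors that use gp130 as well as the kinase bound to them, was high in DP. SOCS3 (gene ID 102187711, chromosome 19, 53046049 to 53049424, plus strand) was at 1.62, 2.76 and 2.89 FPKM in LL, against 19.02, 13.79 and 45.05 in DP and 1.17, 2.72 and 1.58 in LG. All DP libraries were high, the third of them by far, while LL and LG overlapped in FPKM. SOCS3 was higher in DP than in LL (log2 fold change 1.65, SE 0.371, adjusted p = 0.0044) and lower in LG than in DP (-2.79, SE 0.371, adjusted p = 0.00054). Both calls were made under every alternative tried, and leaving out DP replicate 3, the library with the highest value, gave the lowest DP against LL value of 1.18. In the ranking of tested genes within a library, SOCS3 stood at percentiles 41.4 to 55.9 in LL, 76.6 to 94.1 for DP and 8.41 to 28.8 for LG.

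For LG against LL, SOCS3 had a log2 fold change of -1.13 (SE 0.371, adjusted p = 0.029). This call was lost without a filter on low values (adjusted p = 0.056), without scaling (-0.30), with scaling on the reference genes (-0.55) and when LL replicate 2, LL replicate 3, LG replicate 1 or LG replicate 3 was left out.

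SOCS1 (gene ID 106503587, chromosome 25, 9797861 to 9799683, minus strand), which inhibits signalling by interferons, was listed at 0.08, 0.07 and 0.08 FPKM in LL, 2.37, 2.67 and 2.33 in DP, and in LG 0.73, 1.60 and 0.90. It was near 0 in LL, highest in DP and between the others in LG, with no overlap of stages before or after scaling. It passed the filter on low values only through DP and LG, so a difference from LL was built into its being tested. SOCS1 was called higher in DP than in LL, at 1.23 (SE 0.152, adjusted p = 0.00014), a call lost with quantile normalization at 0.86. With 1 FPKM added to values this low, the log2 fold changes of 0.69 (adjusted p = 0.0046) for LG against LL and -0.54 (adjusted p = 0.022) for LG against DP stayed under the size of a call. With 0.1 FPKM added instead, LG against LL was called.

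SOCS2 and CISH are known as targets of STAT5 that restrain growth hormone and prolactin signals, and their values moved differently from those of SOCS3. SOCS2 (gene ID 102178979, chromosome 5, 23129217 to 23135562, plus strand) was at 4.87, 4.05 and 4.04 FPKM in LL, 4.99, 11.10 and 12.75 for DP and 22.98, 15.22 and 10.43 for LG. LL was below all other libraries in FPKM, and DP and LG overlapped. After scaling the stages overlapped in all 3 comparisons, and the log2 fold changes were -0.30 (adjusted p = 0.48) for DP against LL, 0.60 (adjusted p = 0.19) for LG against LL and 0.91 (95% confidence interval 0.11 to 1.70, adjusted p = 0.075) for LG against DP. SOCS2 was called higher in LG than in DP when DP replicate 3 or LG replicate 3 was left out, at up to 1.20. Without scaling it was called higher in LG than in LL.

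CISH (gene ID 102169142, chromosome 22, 49830360 to 49836045, plus strand) was at 4.02, 1.61 and 1.95 FPKM in LL, against 3.11, 2.31 and 3.87 in DP and 4.11, 7.65 and 3.59 in LG. In FPKM every pair of stages overlapped, with 1 high library each in LL and LG. Scaled CISH was lower in every DP library (1.60 to 2.69) than in LL (2.91 to 8.08) and LG (2.73 to 6.20), without overlap. The log2 fold changes were -0.79 (adjusted p = 0.070) for DP against LL, -0.11 (adjusted p = 0.81) for LG against LL and 0.68 (adjusted p = 0.15) for LG against DP. Without LL replicate 2, CISH was called lower in DP than in LL, at -1.01.

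Ratios among the inhibitors separated the stages without any scaling. The log2 ratio of SOCS2 to SOCS3 was 1.53, 0.54 and 0.47 for LL, -1.91, -0.31 and -1.81 for DP and 4.18, 2.44 and 2.65 for LG. SOCS2 exceeded SOCS3 in all LL and LG libraries and was below it in all DP libraries, and no stage overlapped another (exact permutation p = 0.1 for each of the 3 comparisons). The log2 ratio of CISH to SOCS3 was 1.26, -0.74 and -0.54 for LL, -2.57, -2.53 and -3.51 for DP and 1.73, 1.46 and 1.13 for LG. DP was lowest in every library, by 2.86 against LL and 4.31 against LG (exact permutation p = 0.1 in both), while LL and LG overlapped (exact permutation p = 0.2). In all, 12 such comparisons of ratios were made, and with 3 goats against 3 none of them can pass a threshold of 0.05, with or without adjustment.

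**Figure D4:**
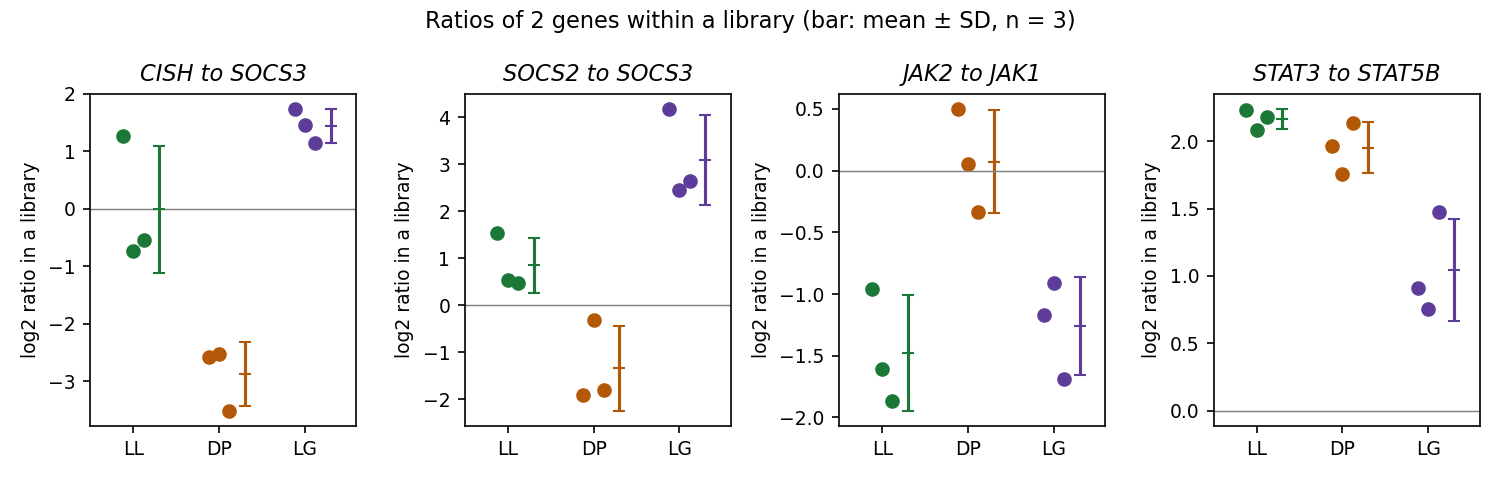
Log2 ratio of 2 genes within each library (vertical axis) by stage. Points are libraries and bars are the mean ± SD of 3. The ratios of CISH and of SOCS2 to SOCS3 are below 0 in all DP libraries, and the ratio of STAT3 to STAT5B is lowest in LG.

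Across the 9 libraries the scaled log2 values of STAT6 and SOCS3 had a Pearson r of 0.92, the highest among the members. The genes most like STAT6 were OLFML1 (r = 0.99) and MYOF (r = 0.99), those most like SOCS3 were SYNPO2 (r = 0.99) and GAS6 (r = 0.98), and those most like SOCS1 were BCL7C (r = 0.996) and MAP3K14 (r = 0.98). For SOCS2 they were TGFBR3 (r = 0.91) and ATRAID (r = 0.87), for CISH C23H6orf89 (r = 0.91) and TRIM44 (r = 0.90), for STAT3 SLC43A3 (r = 0.97) and SNTB2 (r = 0.92), and for STAT5B MARK4 (r = 0.96) and ADCY6 (r = 0.96). The linked JAK1 was most like IARS (r = 0.97) and ATP6V0E1 (r = 0.97), and the linked JAK2 most like AKR1B1 (r = 0.97) and ARMC12 (r = 0.97). These genes were picked for their likeness over the same 9 libraries, so the r values are descriptions.

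Most fibroblast markers and some leukocyte markers were called higher in DP than in LL, whereas endothelial, epithelial and adipocyte markers were not called higher there after scaling. The summed scaled FPKM of 8 leukocyte markers was 34.2 to 42.3 for LL, 62.8 to 115.9 for DP and 25.1 to 41.4 for LG, and 3 of the 7 tested (PTPRC, CD3E and CD3D) were called higher in DP than in LL. The other 4, CD68 (0.85), CD14 (0.72), ITGAM (0.071) and LCP1 (0.74), were not called. Over all genes tested, 13.8% were called higher in DP than in LL. For 7 fibroblast markers the sum was 218.4 to 331.5 for LL, 517.5 to 2415 for DP and 527.5 to 962.0 for LG, and 6 were called higher in DP than in LL. For 8 epithelial markers it was 496.0 to 631.2, 360.3 to 905.6 and 526.5 to 667.5, and none was called in the 3 comparisons after scaling. The 5 endothelial markers summed to 93.2 to 124.7, 112.4 to 160.3 and 58.1 to 79.9, and the 4 adipocyte markers to 7.54 to 10.2, 3.51 to 22.2 and 2.53 to 5.27. None of the 5 endothelial markers was called in DP against LL, and of 3 adipocyte markers tested 1, LIPE, was called lower (-1.49). This call was lost without scaling and with the reference genes. For LG against LL, 2 of the 7 fibroblast markers, COL1A1 and COL3A1, were called higher and 0 lower, with a list median of 0.11. The call of COL1A1 was lost without a filter and without LL replicate 1, LL replicate 2 or LG replicate 2. CD3D (1.46) was called higher there, and CD68 (-1.05), CD14 (-1.18) and LIPE (-1.14) lower. These 3 lower calls were lost without scaling and with the reference genes. No endothelial marker was called in LG against LL. Over all genes tested, 10.7% were called higher and 6.61% lower in that comparison. For LG against DP, 3 fibroblast markers were called lower and 0 higher. These 3 were DCN (-2.09), PDGFRA (-2.41) and PDGFRB (-1.22). The leukocyte markers PTPRC (-1.24), CD68 (-1.90) and CD14 (-1.90) and the endothelial marker TEK (-1.19) were also called lower in LG than in DP. The call of PTPRC was lost without DP replicate 1 or LG replicate 3, and that of TEK without DP replicate 3. No adipocyte marker was called there. Over all genes tested, 6.88% were called lower and 6.37% higher in LG than in DP. Without scaling, 7 of 7 leukocyte, 7 of 7 fibroblast, 5 of 5 endothelial, 5 of 8 epithelial and 1 of 3 adipocyte markers were called higher in DP than in LL, and 5 of 8 epithelial markers higher in LG than in LL. Of all 14701 genes, 7979 were then called higher in DP and 6698 higher in LG than in LL. CD3D was below 0.5 FPKM in all LL libraries and was tested only through the other stages. No marker was at 0 in every library, and epithelial markers were present in all 9 libraries. The part of these cells in the results for SOCS1, SOCS3, STAT6 and JAK2 was not tested.

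The other JAK, STAT and SOCS genes, 9 in number, gave 1 call in each direction for DP against LL and 1 lower call for LG against DP, beside 22.6% and 13.3% of all genes called. Without scaling, as with the reference genes, 7 were called higher and 0 lower in DP than in LL. Of all 14701 genes, 7979 were called higher there without scaling and 5934 with the reference genes. JAK3, the kinase of lymphocyte cytokine receptors, was at 0.24, 0.12 and 0.24 FPKM in LL, 14.37, 3.87 and 4.39 in DP, and in LG 1.68, 2.0 and 1.44. It was called higher in DP than in LL (log2 fold change 1.98, adjusted p = 0.00093) and lower in LG than in DP (-1.19, adjusted p = 0.021), the second call being lost without DP replicate 1, at -0.71, or without LG replicate 1 or 3. Like SOCS1 it was below 0.5 FPKM in all LL libraries, so a difference from LL was built into its being tested. TYK2, the fourth JAK, had log2 fold changes of 0.83, 0.14 and -0.69 in the order DP against LL, LG against LL and LG against DP. It was not called after scaling. STAT2 (0.67, 0.49 and -0.18) and STAT4 (-0.085, -0.41 and -0.32) were not called in these 3 comparisons after scaling. SOCS6 was called lower in DP than in LL at -1.28, a call lost without scaling, at -0.066, and with the reference genes, at -0.37.

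Most of the tested receptors that use JAKs were called between DP and LG. Of 26 receptor genes, 23 were tested, of which 3 were called higher and 11 lower in LG than in DP, with a median log2 fold change of -0.97. Over all genes tested, 6.37% were called higher and 6.88% lower there. DP against LL gave 5 higher and 4 lower, with a median of 0.53, and LG against LL gave 3 higher and 9 lower, with a median of -0.54. The shares of all genes were 13.8% higher and 8.79% lower for DP against LL, and 10.7% and 6.61% for LG against LL. Without scaling the counts were 2 higher and 14 lower for LG against DP, 17 higher and 1 lower for DP against LL, and 7 higher and 3 lower for LG against LL. Of all 14701 genes, 715 were then called higher and 1577 lower for LG against DP. The counts were 7979 and 369 for DP against LL and 6698 and 345 for LG against LL.

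The prolactin receptor PRLR was at 27.24, 28.45 and 25.53 FPKM in LL, 36.28, 33.66 and 21.62 for DP and 83.63, 79.17 and 123.68 for LG. LG was highest in every library. PRLR was called higher in LG than in DP (1.84, adjusted p = 0.00032), under every alternative tried, and its value of 0.60 against LL was not called. Its lower call in DP against LL (-1.24) was lost without scaling, where it was 0.14, and with quantile normalization or reference gene scaling. The growth hormone receptor GHR went the other way, at 9.38, 12.57 and 5.34 FPKM in LL, against 12.72, 11.23 and 7.12 in DP and 2.26, 1.46 and 2.47 in LG. All LG libraries lay below the rest, and GHR was called lower in LG than in LL (-2.66, adjusted p = 0.00014) and DP (-1.58, adjusted p = 0.0040). Its lower call in DP against LL (-1.08) turned to 0.20 without scaling. That call was also lost with quantile, upper-quartile or reference gene scaling and without LL replicate 1, LL replicate 2 or DP replicate 3.

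Of the receptor chains of the IL-6 family, which signal through JAK1 and STAT3, OSMR, IL6ST and CNTFR were called lower in LG than in DP, whereas LIFR, IL6R (-0.77) and IL11RA (0.42) were not called. OSMR, the oncostatin M receptor, was at 10.25, 6.74 and 14.11 FPKM in LL, 26.02, 41.33 and 55.03 in DP, and in LG 3.08, 4.10 and 6.53, a fall of LG against DP by 2.61 on the log2 scale (adjusted p = 0.00039). IL6ST, the shared chain gp130, was at 12.81, 15.70 and 20.28 FPKM in LL, 56.29, 72.78 and 63.90 for DP and 15.06, 14.03 and 23.21 for LG, and was called lower in LG than in DP (-1.61, adjusted p = 0.00035). The calls of OSMR and IL6ST were made under every alternative, while that of CNTFR (-1.01) was lost with quantile normalization and without DP replicate 2, LG replicate 1 or LG replicate 2. In OSMR and IL6ST all DP libraries were the highest in FPKM. After scaling, DP against LL was 0.53 for OSMR and 0.57 for IL6ST, and neither was called. LIFR, which binds leukemia inhibitory factor, was called lower in LG than in LL (-1.81), a call lost without scaling at -0.73, and had -0.73 (adjusted p = 0.028) for LG against DP. It was also called lower in DP than in LL (-1.08, adjusted p = 0.0028), but had 0.24 there without scaling, and the call was lost too with quantile, upper-quartile or reference gene scaling and without LL replicate 2 or DP replicate 3. IL4R, which activates STAT6, was called lower in LG than in DP (-1.30, adjusted p = 0.00042) and had -0.18 for DP against LL, where STAT6 itself was called higher.

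CSF2RB, the shared chain of the GM-CSF, IL-3 and IL-5 receptors, was at 95.27, 90.14 and 91.24 FPKM in LL, against 11.90, 14.11 and 14.46 in DP and 22.36, 17.92 and 17.53 in LG. The LL libraries stood far above all others, and CSF2RB was called lower in DP (-4.05) and LG (-3.36) than in LL, also without scaling (-2.69 and -2.21). IL7R and IL2RB, receptor chains of lymphocytes, were called higher in DP than in LL, at 1.31 and 2.43, the former not without DP replicate 1 (0.99). IL7R was lower in LG than in DP, by -2.53, and IL2RB, listed at 0 in 1 LL library, was called higher in LG than in LL, at 1.70. Without scaling IL2RB had 3.06 for DP and 2.09 for LG, both against LL. CSF3R, the G-CSF receptor, was called higher in LG than in both LL (1.88) and DP (1.26). IL2RB and CSF3R were below 0.5 FPKM in all LL libraries, so a difference from LL was built into their being tested.

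Of 21 ligand genes of these receptors in the table, 7 passed the filter, and 3 were called higher in DP than in LL, 2 higher in LG than in LL and 1 lower in LG than in DP. Over all genes tested, 13.8%, 10.7% and 6.88% were called in these directions. IL6 was at 0.18, 0.28 and 0.25 FPKM in LL, 10.98, 2.11 and 8.53 in DP, and in LG 0.20, 0.27 and 0.38. It stood out in all DP libraries and was below the filter elsewhere, so it was tested only because of DP. Its log2 fold change was 1.86 (adjusted p = 0.0022) for DP against LL and -2.08 (adjusted p = 0.0023) for LG against DP. IL15 was called higher in both DP (1.5) and LG (1.65) than in LL, and CTF1, whose value is linked to a neighbour, likewise (1.18 and 1.24), though not with quantile normalization. IL15 and CTF1, like IL6, were below 0.5 FPKM in all LL libraries, so each of the 3 higher calls in DP against LL came from a gene tested only through other stages. Without scaling 3 ligands were called higher in DP and 2 in LG than in LL, and 2 lower in LG than in DP. Of all 14701 genes, 7979, 6698 and 1577 were then called in these directions. LIF and OSM did not pass the filter, and the gene for prolactin is not named in the table.

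Of 12 other inhibitors of the pathway, 3 were called higher in DP than in LL, and 3 higher in LG than in LL, beside 13.8% and 10.7% of all genes called higher. For LG against DP, 1 was called in each direction, beside 6.37% higher and 6.88% lower over all genes. Without scaling 12 of 12 were called higher in DP and 9 of 12 in LG than in LL, and with the reference genes 7 and 6. Of all 14701 genes, 7979 and 6698 were called higher without scaling, and 5934 and 4143 with the reference genes. CBLB and CBL, ubiquitin ligases that act on receptors, were at 0.12 to 0.25 and 0.09 to 0.32 FPKM in LL and at 6.25 to 7.51 and 4.05 to 5.58 in DP, and were called higher in DP at 2.13 and 1.59. CBLB was lower in LG than in DP (-1.23). PIAS4, a SUMO ligase that binds STATs, was called higher in DP (1.22) and LG (1.39) than in LL, and both calls were lost with quantile normalization. CBLB, CBL and PIAS4 were below 0.5 FPKM in all LL libraries and were tested only through the other stages, so a difference from LL was built in. PIAS3, whose value is linked, was called higher in LG than in LL (1.1, not without LL replicate 1 or LG replicate 2) and DP (1.05). The call against DP was lost without scaling and with upper-quartile or reference gene scaling. It was also lost without DP replicate 1, LG replicate 1 or LG replicate 2.

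STAT5 targets include the milk protein genes. Of 12 STAT5 targets, 7 were called lower and 1 higher in DP than in LL, and 6 lower and 1 higher in LG than in LL. In LG against DP, 7 were called higher and 1 lower. The medians in this order were -2.81, -1.15 and 2.67. Over all genes tested, 8.79%, 6.61% and 6.88% were called lower and 13.8%, 10.7% and 6.37% higher, in the same order. The milk protein genes hold most of the calls of this list. CSN2, beta-casein, was at 83442 to 101530 FPKM in LL but 17.56 to 47.82 in DP and 3851 to 6044 in LG. Its log2 fold changes were -12.97 (DP against LL), -5.45 (LG against LL) and 7.52 (LG against DP), the call of LG against LL being lost with quantile normalization. LALBA, alpha-lactalbumin, had -13.41, -7.10 and 6.30 in the same order, and CSN1S1, CSN1S2 and CSN3, moved the same way. Their values differ within a library by a near constant, with 14.1 to 14.6 FPKM between the lowest and the highest of the 3 genes, so they are not 3 separate measurements. The counts and medians of the list nevertheless take them as 3 genes. Without scaling 3 targets were called higher and 6 lower in DP than in LL, 2 higher and 6 lower in LG than in LL, and 7 higher and 1 lower in LG than in DP. Of all 14701 genes, 7979 were then called higher and 369 lower for DP against LL. The counts were 6698 and 345 for LG against LL and 715 and 1577 for LG against DP. ELF5, the transcription factor of alveolar cells, was at 335.1, 373.8 and 266.3 FPKM in LL, 39.49, 63.74 and 37.56 for DP and 539.8, 503.9 and 654.1 for LG. It was lowest in DP (-4.19, adjusted p = 3.13e-06, against LL), and was called higher in LG than in DP (3.82), with -0.37 (adjusted p = 0.24) in LG against LL. CCND1, cyclin D1, was called higher in DP (1.47) and LG (2.21) than in LL, and TNFSF11, the ligand RANKL, lower in LG than in LL (-1.84) and DP (-1.68), the last call being lost without DP replicate 2, LG replicate 1 or LG replicate 3.

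Of 13 STAT3 targets tested, 1 was called higher and 1 lower in DP than in LL, 4 lower in LG than in LL and 5 lower in LG than in DP, with medians of 0.28, -0.64 and -0.66, beside 22.6%, 17.3% and 13.3% of all genes called. Without scaling 9 were called higher and 0 lower for DP against LL, 5 higher and 3 lower for LG against LL, and 0 higher and 5 lower for LG against DP. Of all 14701 genes, 7979 were then called higher for DP against LL, 6698 higher for LG against LL and 1577 lower for LG against DP. TIMP1, an inhibitor of matrix proteases, was at 6.78, 6.76 and 9.26 FPKM in LL, against 45.34, 48.06 and 184.9 in DP and 8.94, 15.39 and 12.80 in LG. It was called higher in DP than in LL (1.81, adjusted p = 0.0087) and lower in LG than in DP (-2.27), and as with SOCS3 the third DP library was the highest. IGFBP5, which binds insulin-like growth factors and is known from involution, was instead called lower in DP (-2.03) and LG (-2.48) than in LL, the first not without scaling (-0.66). OSMR, also counted among the receptors, CTSL (-2.19), LBP (-1.34) and JUNB (-1.71) were the others called lower in LG than in DP, and the call of JUNB was lost without LG replicate 1 or 3. CTSL (-1.33), a cathepsin, LBP (-1.92), which binds lipopolysaccharide, and OSMR (-2.08) were also called lower in LG than in LL. The call of CTSL was lost without scaling and with the reference genes.

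**Figure D5:**
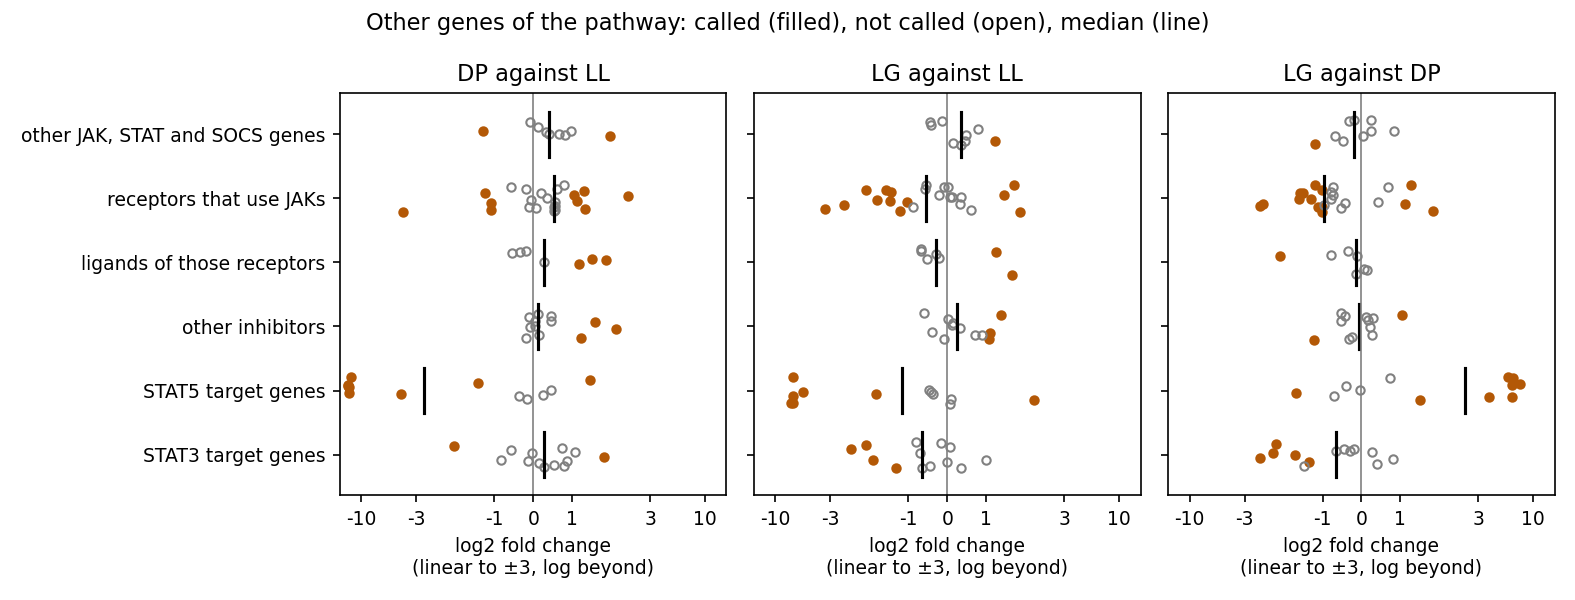
Log2 fold change (horizontal axis, linear to 3 in size and log beyond) of the tested genes of 6 lists around the members, in 3 comparisons of stages. Filled points were called, open points were not, and the black line is the median of the list. The STAT5 targets lie far to the left in DP against LL and to the right in LG against DP, and the receptors lie mostly to the left in LG against DP.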

How the data were processed

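Libraries were made from mammary RNA with a TruSeq v2 kit. The study's methods describe trimming, alignment with HISAT2 and FPKM from StringTie, whereas the submitters' processing notes also name HTSeq. The values deposited by the authors, 1 per gene, were read as FPKM, since neither unit nor build is named in the table. Its 9 columns were all used. The first 19034 rows are ordered by mean LG value, followed by 3078 rows at 0 and then 1375 rows in order of symbol. JAK2 and SOCS3 are in this last set, as are PRLR, GHR, IL6ST, LIFR, OSMR, IL7R and CSF2RB. Why these rows stand apart was not tested. Reads behind a value are unknown, so counting error could not be given. Precision is limited by it and by the number of goats.

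FPKM were divided by median-ratio scaling factors (15905 genes above 0 in all libraries), 1 was added and log2 taken. Genes reaching 0.5 FPKM in 3 or more libraries, 14701 in number, entered limma 3.58.1 (R 4.3.3, mean-variance trend, all 9 libraries, no covariates), with Benjamini-Hochberg adjustment over all of them. Within-library log2 ratios, with 0.1 FPKM added, were compared by two-sided exact permutation tests in Python 3.11.15. Linked neighbours were sought among the 8 next genes on either side, as pairs on a straight line, or on a line plus 1 set of amounts, with no residual above 1% of the range. On simulated data with 14701 genes for DP against LL, 188 of 200 genes changed by 2 on the log2 scale were called, and 2 unchanged genes. The simulated noise was normal, no scaling was applied, and the changed genes had mean log2 values above 2. Changes near the size of 1 asked for a call, and values as low as those of SOCS1, were not simulated. Gene IDs of 23465 genes matched RefSeq ARS1.2, used only for names and neighbours.

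Members and gene lists were chosen with earlier results of these data known. Named were all members, listed genes called in any comparison, up to 8 per list by size of change, chosen receptors and STATs, linked genes, and the 2 genes most like each member. A result of 1 listed gene is not reported here. Alternatives covered scaling, the amount added, the filter, the libraries fitted, a replicate block, the trend and linked genes. Scaling on the 12 reference genes, the link with amounts and the ratio of STAT3 to STAT5B were added after seeing the data.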

Additional observations from a re-analysis of the deposited data

How the results depend on the processing

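Scaling mattered most. Without it, the median log2 fold change of all genes shifted to 1.09 (DP against LL), 0.93 (LG against LL) and -0.18 (LG against DP), and with reference genes to 0.82, 0.63 and -0.20. The share of higher calls then rises: 7979 higher and 369 lower without scaling, against 2029 and 1292 with it, for DP against LL, and 6698 and 345 against 1572 and 972 for LG against LL. Both scalings called 6 members higher in DP than in LL and 2 higher in LG than in LL, of which 3 and 0 were among the calls after median-ratio scaling. Without scaling, the sign turned for JAK1 (0.36), SOCS2 (0.91) and CISH (0.26) in DP against LL, and for JAK1 (0.096), JAK2 (0.30), STAT3 (0.70), STAT6 (0.51) and CISH (0.80) in LG against LL. With reference genes it turned for JAK1 (0.011), SOCS2 (0.61) and CISH (0.0032) in DP against LL, and for STAT3 (0.33), STAT6 (0.21) and CISH (0.52) in LG against LL. Quantile normalization left 2 members called in DP and 1 in LG, both against LL, and no filter left 1 for LG against LL; the cause was not tested.

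Leaving out 1 library gave 3 to 4 calls for DP against LL, 0 to 2 for LG against LL (0 without LL replicate 2 or LG replicate 1, and 1 without LG replicate 2 or 3) and 3 to 4 for LG against DP. It turned the sign of small, uncalled values: STAT3 in DP against LL (-0.055 to 0.13), SOCS2 there (-0.54 to 0.069), CISH in LG against LL (-0.39 to 0.28) and JAK1 in LG against DP (-0.32 to 0.12). JAK2, SOCS3 and STAT6 for LG against DP and SOCS3 for DP against LL were called under every alternative tried.

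Replicate numbers are shared by different goats only. The deviations of libraries with the same number had correlations of -0.11 to 0.20 (median 0.059), and 6 of 9 libraries correlated best with a library of their own number. With a replicate block, 4, 2 and 3 members were called in the 3 comparisons, as without it. The ratio of CISH to SOCS3 for LG against DP was 3.66 with 1 FPKM added, against 4.31. The number of linked members was 2 under each rule for linking. FPKM without read counts limit what can be said of SOCS1 in LL.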
